A study of Mus musculus with 18 samples.

Results

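Cytokines that act through the JAK-STAT pathway set the survival and lineage output of blood stem and progenitor cells, and 10 genes of this pathway were followed across sorted progenitors of lupus-prone and control mice. The genes were the cytokine Osm (oncostatin M), the kinase Jak2, the transcription factors Stat3, Stat5a and Stat5b, the feedback inhibitors Cish, Socs1, Socs2 and Socs3, and the kinase Pim1. They were chosen by symbol, and all 10 of the 10 genes were found both in the table of LSK, which holds 19780 genes, and in that of CMPs, which holds 18428 (20639 genes in all).

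A cytokine such as oncostatin M, interleukin 3, thrombopoietin or erythropoietin binds a receptor whose tails carry Janus kinases. The kinases phosphorylate each other and the receptor, STAT proteins dock there, are phosphorylated, pair and enter the nucleus, where they bind elements with the core TTCNNNGAA. Among the genes they induce are Pim1, whose kinase promotes survival and growth, and the SOCS family, whose products bind the receptor or the kinase and shut the signal off, so that SOCS transcripts are widely used as a readout of recent STAT activity.

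LSK are Lin−Sca-1+c-Kit+ bone marrow cells, among which the mouse blood stem cells are found, and CMPs are common myeloid progenitors. The NZBW/F1 hybrid is a mouse model in which lupus arises without induction. LSK RNA was sequenced in 12 samples, with 3 samples in each of 4 groups of female mice: NZBW/F1 before disease (F1-P) and C57BL/6 (B6-Y), both 12 weeks of age, and NZBW/F1 with proteinuria (F1-L) and C57BL/6 (B6-O), both 28 to 36 weeks of age. CMP RNA was sequenced in 6 samples, 3 of F1-P and 3 of F1-L. F1-L and F1-P therefore differed both in disease and in age, and F1-L against B6-O joined strain and disease, which cannot be told apart in that comparison. F1-P against B6-Y compared the strains at 1 age before disease. The labels number the samples of a group without saying whether each came from its own mouse, so the p-values measure the spread between these samples, which may be technical.

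The samples had 23772252 to 28493747 reads on genes in LSK and 20001328 to 24761060 in CMPs. The 10 genes drew between 12 reads (Socs1 in F1-L CMP replicate 2) and 13402 reads (Pim1 in an F1-L LSK sample). The unit is CPM, reads per gene relative to a scaled library size, and values of single samples are given in the order of replicates 1, 2 and 3. In bulk RNA, fewer cells of a kind and less RNA per cell cannot be told apart. Reads of both strains were mapped to the same genome, mm10, and whether mapping differed by strain was not tested. In LSK the globin gene Hba-a2 had a mean CPM of 9.03 in B6-Y, 29.3 in B6-O, 0.162 in F1-P and 0.0798 in F1-L. Its neighbour in name, Hba-a1, had 17.2, 58.0, 279 and 42.9 in the same groups. Kit had a CPM of 257 to 668 over all samples, while Ly6a, the gene of Sca-1, had a CPM of 293 to 879 in NZBW/F1 LSK, 35.5 to 113 in C57BL/6 LSK and 1.14 to 6.70 in CMPs. The other 8 of the 9 LSK and progenitor markers had lower means in NZBW/F1 than in C57BL/6 LSK at both ages, without overlap for 6 of the 9 in F1-P against B6-Y (Cd34 169 to 291 against 462 to 751, Hlf 106 to 165 against 229 to 274) and for 4 in F1-L against B6-O. The gates removed cells with CD11b, Gr-1, Ter119, B220 or CD16/32, yet markers of other cells had reads in every LSK group. The summed CPM of 8 plasma cell markers was 9742 to 37905 in NZBW/F1 LSK and 253 to 2529 in C57BL/6 LSK, that of 8 T and NK cell markers 199 to 435 and 51.6 to 112, and immunoglobulin genes held 16.8% to 36.6% and 0.301% to 4.76% of the reads. The summed CPM of 11 neutrophil markers ranged from 301 in an F1-P sample to 12373 in an F1-L sample. In CMPs it was 315, 6453 and 8442 in F1-P and 85.8, 64.2 and 431 in F1-L.

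STAT cores were looked for in RefSeq promoter windows of 300 bases (250 before the start of transcription and 50 after it, build GRCm38.p6), which were held for 8 of the 10 genes in 11 windows. The sequence TTCNNNGAA, which reads the same on both strands, was present in 2 of these windows, those of Cish and Socs3, and in 8.30% of all 32851 windows. The Cish window held 2 cores, as did 0.457% of all windows. The stretches with the cores are shown because such elements are the known route by which STAT proteins induce these feedback genes. Capitals mark the cores. The Cish stretch lies at chr9:107296654-107296683 on the plus strand, and its first core begins at base 1 after the RefSeq start. The Socs3 stretch lies at chr11:117969502-117969530 on the minus strand, where the core begins 154 bases before the RefSeq start. Both stretches lie inside the genes as annotated by GENCODE M21 (Cish 107296026 to 107302784, Socs3 117966079 to 117970047).
Cish: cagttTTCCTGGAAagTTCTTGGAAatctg
Socs3: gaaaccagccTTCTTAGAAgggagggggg
A match describes letters, not a bound site, and no binding was measured. No window was held for Socs2 and Osm.

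**Figure D1:**
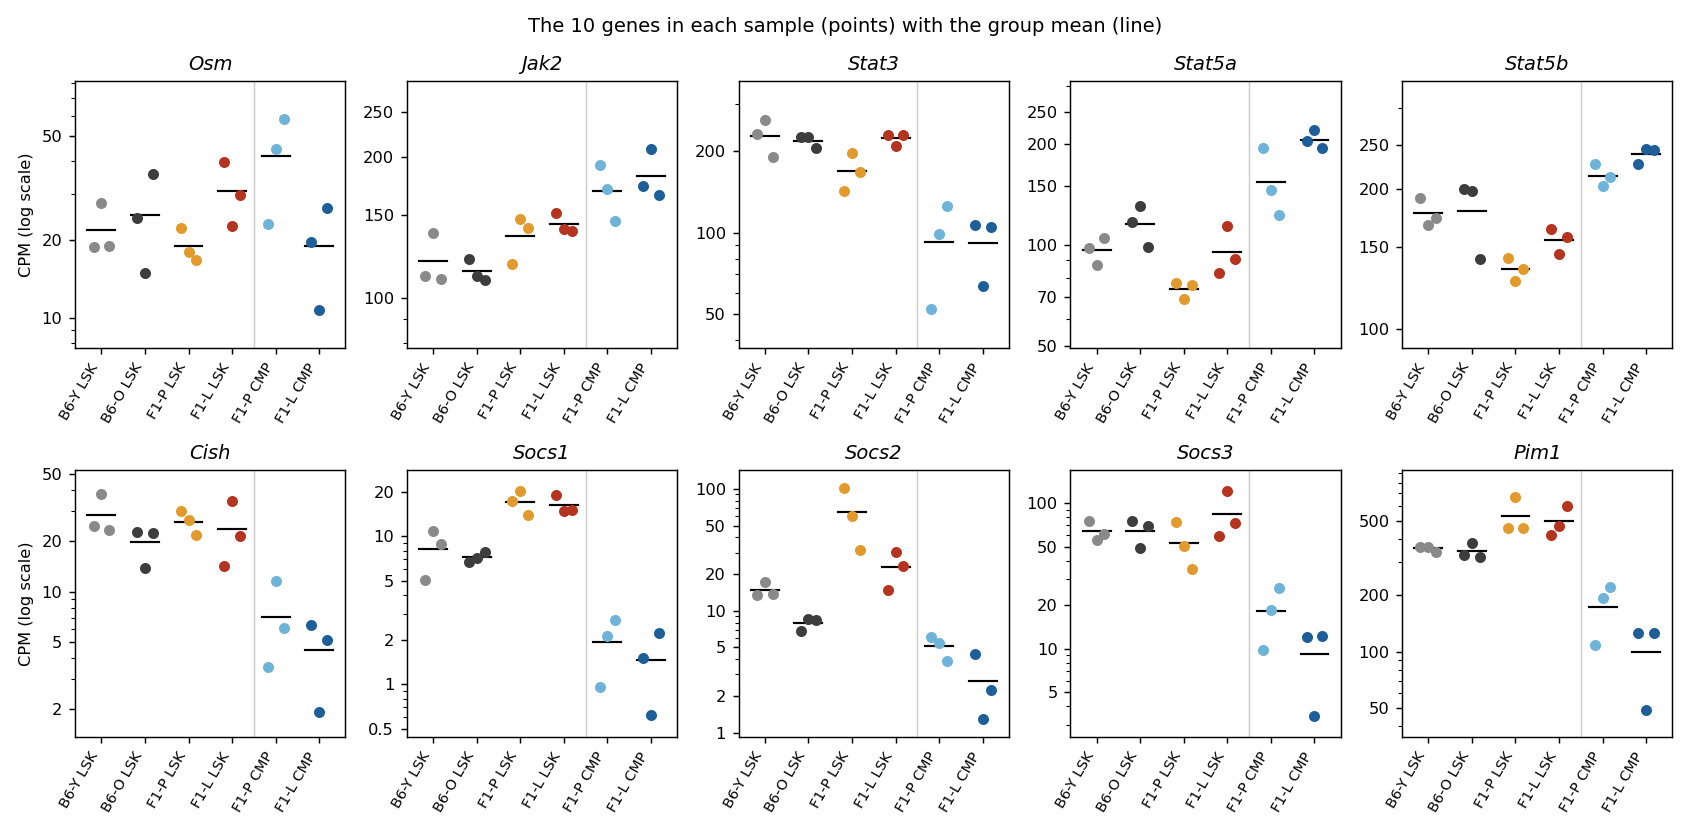
CPM (log axis) of each of the 10 genes in the 18 samples, 1 point per sample and a line at the group mean, with LSK left and CMPs right of the grey line. Socs1 and Socs2 sit higher in NZBW/F1 than in C57BL/6 LSK of the same age, and Cish, Socs1, Socs2, Socs3, Pim1 and Stat3 sit lower in CMPs than in LSK.

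The first question was how LSK of lupus-prone mice differ from LSK of control mice of the same age. Socs1 and Socs2, 2 of the 4 feedback inhibitors, were higher in NZBW/F1 at both ages, and no other gene of the 10 passed the test. A gene was called when limma gave a Benjamini-Hochberg adjusted p no higher than 0.05 together with a fold change over 1.5, with log2(CPM + 1) as the scale of all fold changes. In F1-L against B6-O 2 of the 10 genes were called, both higher, beside 11.6% of the 14381 genes tested. In F1-P against B6-Y 2 of the 10 were called, both higher, beside 16.2% of 14380 genes. At an unadjusted p below 0.05 there were 4 and 6 of the 10, beside 27.5% and 31.3% of all genes. edgeR's quasi-likelihood test, its likelihood ratio test and DESeq2 called 2, 2 and 2 of the 10 in F1-L against B6-O, beside 10.1%, 14.6% and 15.9% of all genes, and 2, 2 and 3 in F1-P against B6-Y, beside 15.9%, 19.1% and 19.6%. The median log2 fold change of the 10 genes was 0.33 in F1-L against B6-O and −0.14 in F1-P against B6-Y, and that of all genes −0.03 and −0.04.

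Socs1 encodes an inhibitor that binds Janus kinases directly and is a main brake on interferon signalling. It lies on chromosome 16 (10782240 to 10785536, minus strand, GRCm38) and spans 2 exon blocks. Its CPM was 5.08, 10.8 and 8.91 in B6-Y and 6.72, 7.11 and 7.79 in B6-O. It was 17.4, 20.1 and 14.0 in F1-P and 19.0, 14.8 and 15.1 in F1-L. All 6 NZBW/F1 samples thus lay above all 6 C57BL/6 samples, and neither strain showed a gap between its ages. F1-L exceeded B6-O by a log2 fold change of 1.07 (SE 0.18) at an adjusted p of 0.0105 in limma. F1-P exceeded B6-Y by 1.01 (SE 0.27) at an adjusted p of 0.0397 in limma. On the scale of CPM + 1 these are 2.10-fold and 2.02-fold, which is smaller than the ratio of the CPM. In F1-L against B6-O the adjusted p in limma was 0.0527 without B6-O replicate 1, 0.0524 without F1-L replicate 1 and 0.0640 without F1-L replicate 3. In F1-P against B6-Y it was 0.104 without B6-Y replicate 1, 0.0719 without B6-Y replicate 3, 0.0817 without F1-P replicate 1, 0.163 without F1-P replicate 2 and 0.0688 without F1-P replicate 3. The log2 fold change stayed between 0.96 and 1.21 over all alternatives in F1-L against B6-O and between 0.74 and 1.34 in F1-P against B6-Y.

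Socs2 encodes the feedback inhibitor best known from growth hormone signalling, which is induced through STAT5. It lies on chromosome 10 (95385362 to 95417180, minus strand) and spans 13 exon blocks. Its CPM was 13.5, 17.0 and 13.6 in B6-Y and 6.85, 8.62 and 8.32 in B6-O. It was 103, 60.1 and 31.4 in F1-P and 14.9, 30.4 and 23.4 in F1-L. Every F1-P sample lay above every sample of the other 3 groups, and the F1-P samples spread more among themselves than those of any other group. The gap between strains held within each age, while the lowest F1-L value lay within the range of B6-Y. F1-L exceeded B6-O by a log2 fold change of 1.37 (SE 0.27) at an adjusted p of 0.0199 in limma. F1-P exceeded B6-Y by 1.92 (SE 0.37) at an adjusted p of 0.0111 in limma. On the scale of CPM + 1 these are 2.58-fold and 3.78-fold.

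The Socs2 call in F1-P against B6-Y held under all 19 alternatives, with log2 fold changes from 1.51 to 2.45 and adjusted p from 2.44e-08 to 0.04998. In F1-L against B6-O the adjusted p in limma was 0.0817 without B6-O replicate 1, 0.0605 without B6-O replicate 2, 0.0734 without F1-L replicate 2 and 0.1003 without F1-L replicate 3, and the call was lost there (log2 fold changes of 1.15 to 1.67 over all alternatives). Plasma cell markers and T and NK cell markers also stood higher in NZBW/F1 than in C57BL/6 LSK, and 8 of the 9 LSK and progenitor markers lower. Of the 8 monocyte and macrophage markers, 8 had higher means in F1-L than in B6-O, while in F1-P against B6-Y 3 were higher, Ly6c2 by the most (533 against 64.5 CPM), and 5 lower. The part of these markers in the difference of Socs1 and Socs2 between strains was not tested. Within F1-P the replicate with the highest Socs2 (103) had the lowest plasma cell sum (14635, against 37905 and 33992), and the replicate with the lowest Socs2 (31.4) had the highest erythroid sum (2902, against 105 and 87.4). Without that replicate and B6-Y replicate 2, whose neutrophil sum was 5441 against 499 and 485, Socs1 and Socs2 were both still called in F1-P against B6-Y. Both were also called in F1-L against B6-O without B6-O replicate 3 and F1-L replicate 1, whose neutrophil sums of 10719 and 12373 were the highest of their groups. The neutrophil sums left in that fit did not overlap (4905 and 1983 in F1-L, 1736 and 832 in B6-O). Group and neutrophil markers therefore cannot be told apart in it. These choices were made after the data were seen.

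**Figure D2:**
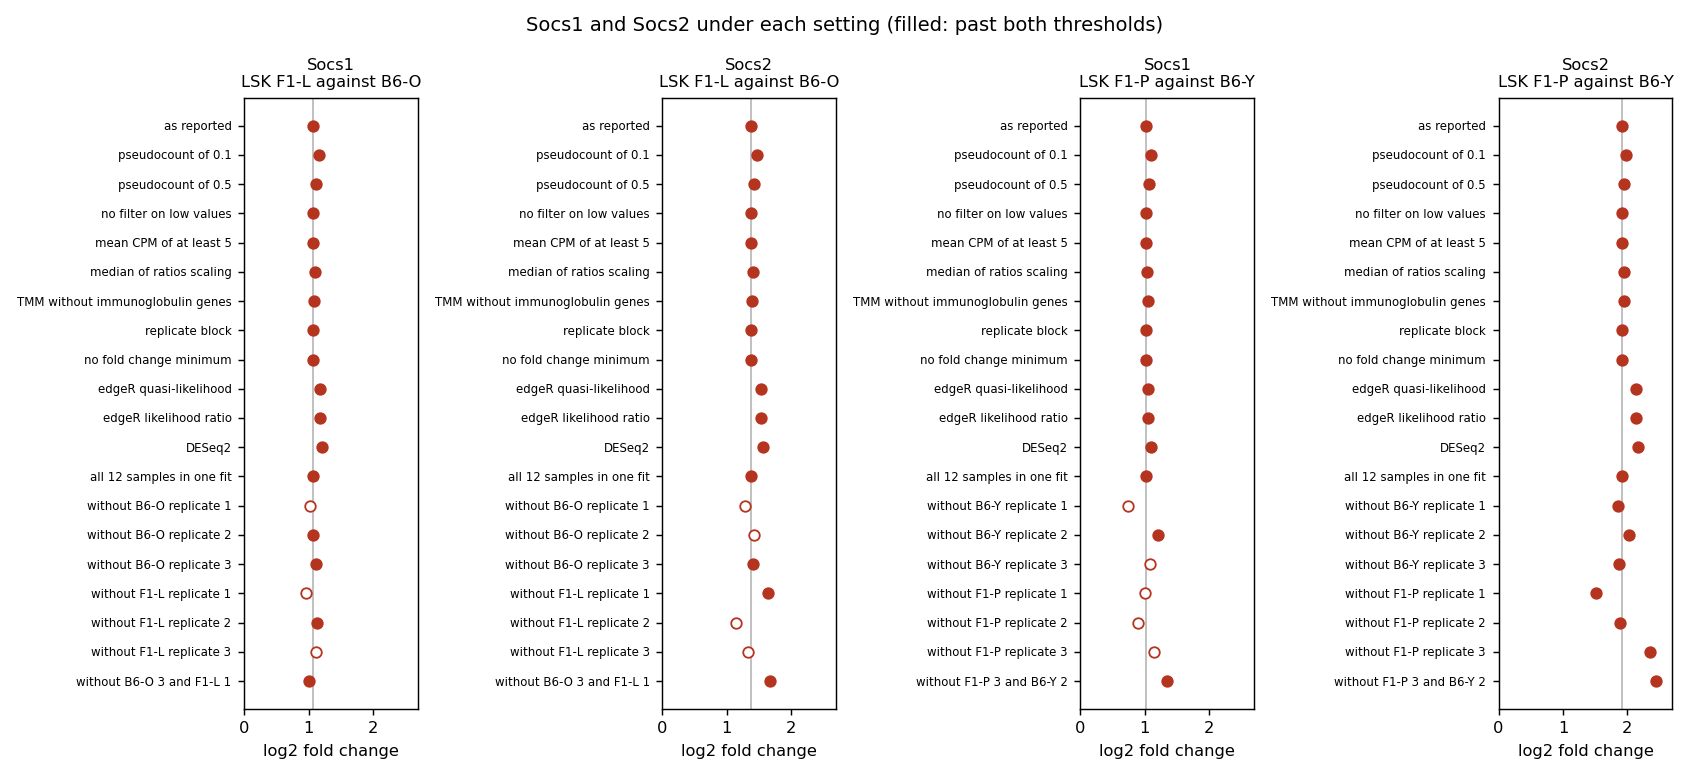
Log2 fold change of Socs1 and Socs2 between NZBW/F1 and C57BL/6 LSK as reported (grey line) and under each alternative, filled where the gene passed both thresholds. The direction is the same in every row, Socs2 in F1-P against B6-Y is filled throughout, and the open circles are fits with 1 replicate left out.

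The other feedback genes did not part the strains. Cish, the first SOCS protein described and a STAT5 target, had a CPM of 24.7, 37.9 and 23.3 in B6-Y, 22.7, 13.9 and 22.4 in B6-O, 30.2, 26.6 and 21.6 in F1-P, and 14.1, 34.7 and 21.5 in F1-L. Socs3, which brakes the receptors of interleukin 6, oncostatin M and G-CSF, had 75.2, 55.4 and 61.0 in B6-Y, 75.6, 48.8 and 69.4 in B6-O, 73.6, 50.8 and 35.1 in F1-P, and 59.4, 121 and 72.9 in F1-L. For both genes the NZBW/F1 samples overlapped the C57BL/6 samples of the same age. The 95% interval of the log2 fold change between F1-P and B6-Y was −0.62 to 0.40 for Cish and −0.91 to 0.29 for Socs3. In F1-L against B6-O it was −0.62 to 0.99 for Cish and −0.34 to 1.01 for Socs3. Log2 fold changes of up to about 1 thus remain possible. Cish shares exon bases with Gm17040 and Gm17041 on the opposite strand, and the library kit does not mark strand, so reads of these genes cannot be told apart.

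Pim1, the kinase that STAT5 and STAT3 induce, had the highest level per kilobase of the 10 genes in every LSK group. It lies on chromosome 17 (29490753 to 29496112, plus strand), and 488 of its exon bases overlap the antisense gene Gm26885. Its CPM was 362, 364 and 342 in B6-Y, 327, 382 and 319 in B6-O, 455, 669 and 459 in F1-P, and 421, 468 and 602 in F1-L. All NZBW/F1 samples lay above all C57BL/6 samples, but the differences did not pass the test. The log2 fold change was 0.52 (95% interval 0.083 to 0.96, adjusted p = 0.123 in limma) in F1-L against B6-O and 0.54 (95% interval 0.11 to 0.97, adjusted p = 0.0851 in limma) in F1-P against B6-Y. DESeq2 on reads recovered from the CPM called it in F1-P against B6-Y (log2 fold change 0.60, adjusted p = 0.0202), while the range of adjusted p over the alternatives was 0.0202 to 0.300.

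Jak2, the kinase used by the receptors of erythropoietin, thrombopoietin and interleukin 3, had a CPM of 111, 138 and 110 in B6-Y, 121, 111 and 109 in B6-O, 118, 148 and 141 in F1-P, and 152, 140 and 139 in F1-L. F1-L lay above B6-O in all samples (log2 fold change 0.33, adjusted p = 0.110 in limma), and F1-P overlapped B6-Y. Stat5a and Stat5b, neighbours on chromosome 11 that mediate most of these signals, went the other way between F1-P and B6-Y. Stat5a had 98.1, 87.1 and 105 in B6-Y and 77.0, 68.9 and 76.2 in F1-P, and Stat5b had 192, 167 and 173 in B6-Y and 142, 127 and 134 in F1-P. The F1-P samples of both genes lay below all B6-Y samples, with log2 fold changes of −0.38 (95% interval −0.67 to −0.091, adjusted p = 0.0759 in limma) and −0.40 (95% interval −0.67 to −0.12, adjusted p = 0.0587 in limma). Neither was called under any of the 19 alternatives. In F1-L against B6-O both overlapped, with 82.3, 114 and 91.0 in F1-L and 117, 131 and 98.5 in B6-O for Stat5a, and 164, 145 and 158 against 200, 199 and 141 for Stat5b.

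Stat3, the factor used by the interleukin 6 family and by G-CSF, had 233, 260 and 190 in B6-Y and 142, 197 and 168 in F1-P, which overlapped (log2 fold change −0.43, adjusted p = 0.139 in limma). It had 226, 226 and 205 in B6-O and 231, 210 and 230 in F1-L, which overlapped as well. Of Stat5a transcripts 5.12% of the stretches of 75 bases, the read length, are also found in Stat5b, so a small share of their reads may not have been assigned. Stat3 and Stat5a share 72 exon bases on opposite strands. Osm, an interleukin 6 family cytokine made by activated myeloid and T cells, had 18.8, 27.8 and 19.0 in B6-Y, 24.2, 14.9 and 35.7 in B6-O, 22.3, 17.97 and 16.7 in F1-P, and 39.8, 22.5 and 29.8 in F1-L, and overlapped between strains at both ages.

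In F1-L against B6-O the samples of 4 of the 10 genes (Jak2, Socs1, Socs2 and Pim1) did not overlap, all higher in F1-L, beside 37.4% of all genes in either direction (17.5% higher). In F1-P against B6-Y they did not overlap for 5 of the 10 genes, Socs1, Socs2 and Pim1 higher and Stat5a and Stat5b lower, beside 35.5% of all genes. The shares of members, 4 and 5 of 10, stood near those of all genes.

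**Figure D3:**
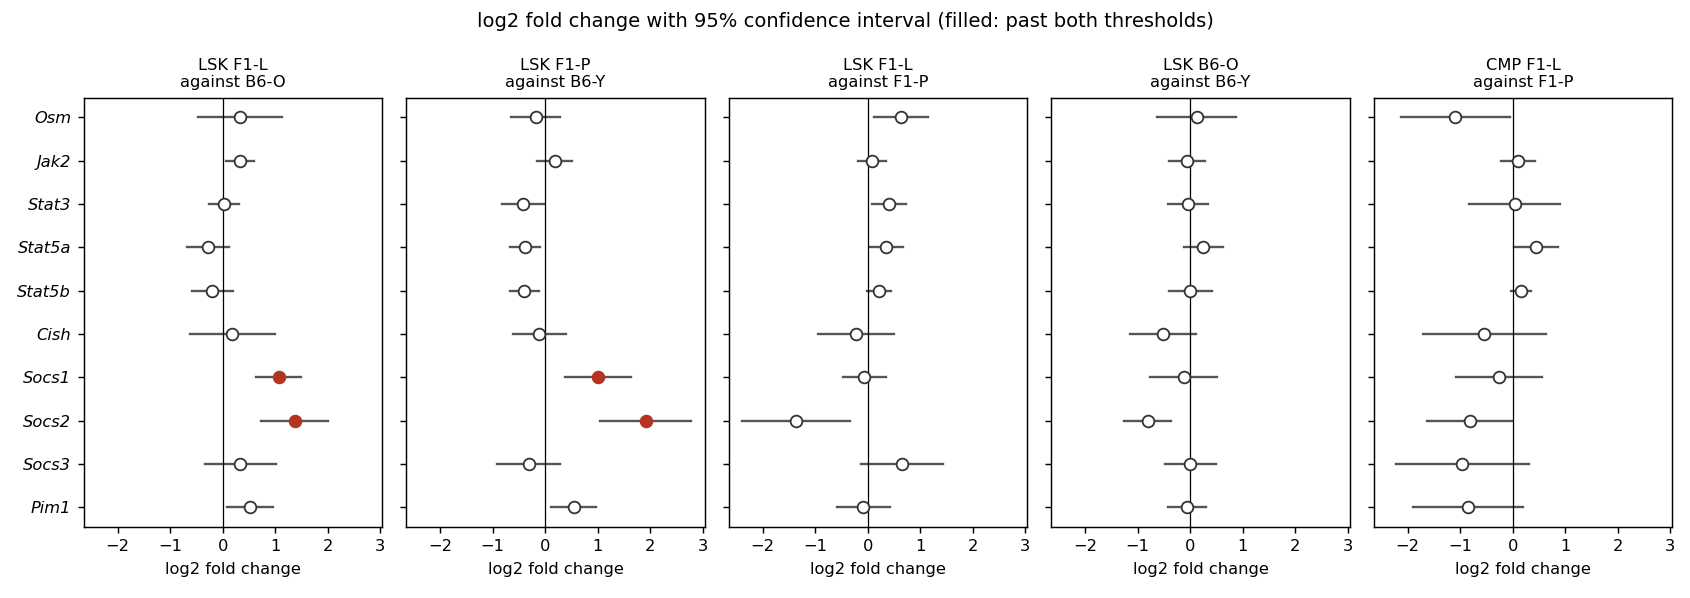
Log2 fold change of each gene with its 95% confidence interval in the 4 comparisons of LSK and the comparison of CMPs, filled where both thresholds were passed. Only Socs1 and Socs2 are filled, in the first 2 panels, and the intervals of CMPs are the widest for Osm, Cish, Socs3 and Pim1.

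The comparison of F1-L with F1-P asks what goes with disease and age in lupus-prone LSK, and it shares its groups with the comparisons above. In limma 0 of the 10 genes were called, beside 0.0279% of 14332 genes. At an unadjusted p below 0.05 there were 4 of the 10 (Osm, Stat3 and Stat5a higher and Socs2 lower in F1-L), beside 12.8% of all genes. By edgeR's quasi-likelihood test 0 of the 10 were called (0.0209% of all genes), and 1, Socs2, by its likelihood ratio test (4.6%) and by DESeq2 (5.12%). The samples of 5 of the 10 genes did not overlap, beside 17.7% of all genes. The median log2 fold change was 0.15 over the 10 genes and −0.01 over all genes.

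Socs2 had the largest difference. Its CPM of 103, 60.1 and 31.4 in F1-P and 14.9, 30.4 and 23.4 in F1-L gave a log2 fold change of −1.36 (95% interval −2.39 to −0.33, adjusted p = 0.275 in limma). All F1-L samples lay below all F1-P samples, by a margin of about 1 CPM between the closest. The likelihood ratio test gave −1.499 (adjusted p = 0.0277) and DESeq2 −1.51 (adjusted p = 0.0115), and over all alternatives the adjusted p ranged from 0.0115 to 0.673. Osm had 22.3, 17.97 and 16.7 in F1-P and 39.8, 22.5 and 29.8 in F1-L, and its samples did not overlap by a margin smaller than 1 CPM (log2 fold change 0.64, adjusted p = 0.296 in limma). Stat3 had 142, 197 and 168 in F1-P and 231, 210 and 230 in F1-L (log2 fold change 0.41, adjusted p = 0.287), and Stat5a 77.0, 68.9 and 76.2 against 82.3, 114 and 91.0 (log2 fold change 0.35, adjusted p = 0.337).

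Stat5b, 142, 127 and 134 in F1-P and 164, 145 and 158 in F1-L, likewise did not overlap. The 3 STAT genes thus had their lowest LSK group means in F1-P. The neutrophil sum was 301 to 1281 in F1-P and 1983 to 12373 in F1-L, with no overlap. The plasma cell sum (14635 to 37905 in F1-P, 9742 to 13036 in F1-L) and the B cell sum (295 to 404 and 166 to 213, 8 markers) were lower in F1-L without overlap, as was Socs2. The part of these cells in the differences was not tested. The neutrophil sum was 12373, 4905 and 1983 in F1-L, with Osm at 39.8, 22.5 and 29.8 and Stat5a at 82.3, 114 and 91.0. In F1-P it was 301, 526 and 1281, with Osm at 22.3, 17.97 and 16.7 and Stat5a at 77.0, 68.9 and 76.2. Osm thus did not rise in the order of the sum in either group, although in F1-L the highest sum went with the highest Osm. In B6-O the sum was 1736, 832 and 10719, with Osm at 24.2, 14.9 and 35.7, so that Osm rose in its order. In B6-Y the sum was 499, 5441 and 485, with Osm at 18.8, 27.8 and 19.0, and both were highest in replicate 2. Cish, Socs1 and Pim1 overlapped between F1-P and F1-L, with 95% intervals of the log2 fold change of −0.95 to 0.50, −0.48 to 0.35 and −0.58 to 0.42. Jak2 overlapped as well (log2 fold change 0.088, 95% interval −0.18 to 0.35, adjusted p = 0.820 in limma). So did Socs3 (log2 fold change 0.65, 95% interval −0.13 to 1.44, adjusted p = 0.472 in limma).

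The comparison of B6-O with B6-Y shows what goes with age in control LSK. In limma 0 of the 10 genes were called, beside 0.0% of 14005 genes, and 1 of the 10 (Socs2) had an unadjusted p below 0.05, beside 6.62% of all genes. Neither test of edgeR called any of the 10 (0.0% and 0.821% of all genes), and DESeq2 called 1, Socs2 (1.48%). Socs2 had 13.5, 17.0 and 13.6 in B6-Y and 6.85, 8.62 and 8.32 in B6-O, and all B6-O samples lay below all B6-Y samples (log2 fold change −0.81, 95% interval −1.26 to −0.36, adjusted p = 0.334 in limma and 0.00714 in DESeq2, with a range of 0.00714 to 1.00 over all alternatives). Cish was the only other gene of the 10 without overlap, with 24.7, 37.9 and 23.3 in B6-Y and 22.7, 13.9 and 22.4 in B6-O (adjusted p = 0.823 in limma). Of all genes 11.3% did not overlap. The B cell sum was likewise lower in B6-O without overlap (52.5 to 119, against 169 to 387 in B6-Y), and its part was not tested.

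Socs2 therefore had a lower mean in the older group of both strains, and the difference between both changes was tested itself. The contrast of F1-L minus F1-P against B6-O minus B6-Y was −0.55 on the log2 scale for Socs2 (95% interval −1.66 to 0.56, adjusted p = 0.976 in limma). Of the 10 genes, 0 were called in this contrast by limma, either test of edgeR or DESeq2, beside 0.0%, 0.0%, 0.0663% and 0.192% of 15084 genes, and 0 had an unadjusted p below 0.05, beside 3.92% of all genes. The contrast for Stat3 was 0.45 (95% interval −0.0060 to 0.92) and for Socs3 0.65 (95% interval −0.27 to 1.57). The intervals are wide enough for changes that differ by more than 2-fold in Socs2 and Socs3.

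In CMPs the comparison of F1-L with F1-P asks what goes with disease and age in the next myeloid stage. In limma 0 of the 10 genes were called, beside 0.00774% of 12926 genes, and 3 of the 10 (Stat5a higher, Osm and Socs2 lower in F1-L) had an unadjusted p below 0.05, beside 9.8% of all genes. Both tests of edgeR and DESeq2 called 0 of the 10, beside 0.00774%, 2.46% and 2.72% of all genes. The samples of 1 of the 10 genes, Stat5b, did not overlap, beside 16.0% of all genes. The median log2 fold change was −0.40 over the 10 genes and 0.04 over all genes.

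Osm had a CPM of 23.1, 44.8 and 58.2 in F1-P CMPs and 19.7, 10.7 and 26.6 in F1-L CMPs (log2 fold change −1.09, 95% interval −2.13 to −0.056, adjusted p = 0.499 in limma). Socs3 had 9.70, 18.4 and 25.9 in F1-P and 11.9, 3.46 and 12.2 in F1-L, and Pim1 had 108, 193 and 220 and 126, 49.0 and 125. In all 3 genes F1-P replicates 2 and 3 were the highest of the 6 samples, F1-P replicate 1 lay within the F1-L range, and F1-L replicate 2 was the lowest. F1-P replicates 2 and 3 also had the highest neutrophil sums of the CMP samples (6453 and 8442, against 64.2 to 431 in the others), and F1-P replicate 1 and F1-L replicate 2 the highest erythroid sums (3561 and 4063, against 2332 to 2885). The neutrophil sums of the groups overlapped, while the B cell sum did not (43.1 to 190 in F1-P, 10.8 to 27.6 in F1-L). All 11 neutrophil markers had reads in both groups, although CD11b+ and Gr-1+ cells were gated out. The erythroid marker Hba-a2 had no value in CMPs, so the erythroid sums there rest on the other 7 markers. The part of these cells in the differences was not tested.

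**Figure D4:**
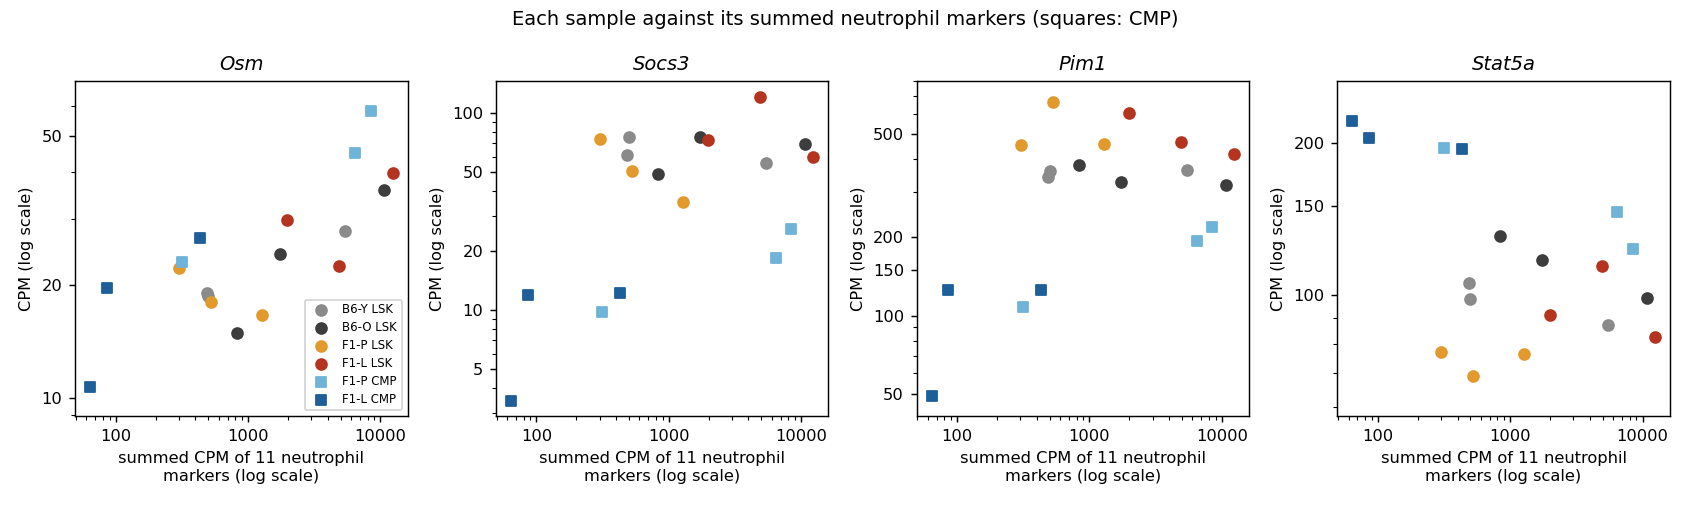
CPM of Osm, Socs3, Pim1 and Stat5a in each sample against its summed CPM of 11 neutrophil markers (both axes log), with circles for LSK and squares for CMPs. Among CMPs, F1-P replicates 2 and 3 stand at the right, with the highest Osm (44.8 and 58.2), Socs3 and Pim1 and the lowest Stat5a (146 and 123).

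Stat5a had 196, 146 and 123 in F1-P CMPs and 204, 221 and 195 in F1-L CMPs, Stat5b 227, 203 and 213 and 227, 245 and 243, and Jak2 192, 171 and 146 and 173, 207 and 166. The highest F1-P and the lowest F1-L value of Stat5b both rounded to 227, so the groups were barely apart. Stat3 had 52.2, 98.8 and 126 in F1-P and 107, 63.3 and 105 in F1-L, which overlapped. Both STAT5 genes had positive log2 fold changes of 0.44 and 0.15, at adjusted p of 0.497 and 0.578 in limma. Without F1-P replicate 1, limma called Stat5a higher in F1-L (log2 fold change 0.62, adjusted p = 0.0415, range over all alternatives 0.0403 to 0.996), beside 3.4% of all genes called in that fit. Without F1-P replicate 1 and F1-L replicate 2, a choice made after the data were seen, limma called Osm (log2 fold change −1.12, adjusted p = 0.0254) and Pim1 (−0.71, adjusted p = 0.0133), both lower in F1-L, beside 5.11% of all genes, and Stat5a missed the fold minimum of 1.5 (log2 fold change 0.57, adjusted p = 0.0403). Without F1-P replicate 1 the neutrophil sums did not overlap (6453 and 8442 in F1-P, 64.2 to 431 in F1-L). In both of these fits, stage and neutrophil markers therefore cannot be told apart.

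The remaining genes were low in CMPs. Cish had 3.55, 11.5 and 6.07 in F1-P and 6.37, 1.91 and 5.13 in F1-L, Socs2 had 6.10, 5.38 and 3.88 and 4.41, 1.29 and 2.24, and Socs1 had 0.960, 2.12 and 2.703 and 1.5004, 0.619 and 2.24. The groups overlapped for each of these genes. Socs1 was backed by 12 to 69 reads per sample, so counting error adds to the spread between samples there.

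Whether the change from F1-P to F1-L differed between CMPs and LSK was tested on reads scaled together over both tables. In limma 0 of the 10 genes were called, beside 0.00694% of 14412 genes, and 2 of the 10, Osm and Socs3, had an unadjusted p below 0.05, beside 7.88% of all genes. The contrast of Osm was −1.72 on the log2 scale (95% interval −2.80 to −0.64, adjusted p = 0.300 in limma), and its group means went up in LSK and down in CMPs from F1-P to F1-L. edgeR's likelihood ratio test (−1.82, adjusted p = 0.0239) and DESeq2 (−1.80, adjusted p = 0.0197) called Osm and no other gene of the 10, beside 3.11% and 2.98% of all genes, and limma called it without F1-P CMP replicate 1 (−2.06, adjusted p = 0.0252), beside 3.63%. By the quasi-likelihood test 0 of the 10 were called (0.0% of all genes). The adjusted p of Osm ranged from 0.0197 to 0.741 over all alternatives. Socs3 had a contrast of −1.59 (95% interval −3.003 to −0.18, adjusted p = 0.569 in limma). The neutrophil sum moved in the same way, up from F1-P to F1-L in LSK and down in CMPs, and its part was not tested.

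Between cell types the clearest pattern among the 10 genes lay in the 4 feedback inhibitors. Both tables were normalised separately, so levels of NZBW/F1 CMPs and LSK were set on a joint scale and are described without a test, 6 samples of each. All 4 feedback inhibitors, Pim1 and Stat3 were lower in all CMP samples than in any LSK sample, Stat5a and Stat5b were higher in all CMP samples, and Jak2 and Osm overlapped. Thus 8 of the 10 genes did not overlap, 6 lower and 2 higher, beside 48.7% of 14411 genes (21.6% lower and 27.1% higher). The median log2 difference of CMPs from LSK was −1.58 over the 10 genes and 0.00 over all genes. Socs4, Socs5, Socs6 and Socs7 were not set on the joint scale. Their mean CPM as deposited in F1-P and F1-L LSK was 66.4 and 70.4, 38.4 and 39.7, 28.2 and 26.1, and 73.6 and 68.0. In F1-P and F1-L CMPs it was 81.3 and 94.9, 29.4 and 37.2, 29.7 and 27.6, and 82.8 and 83.7.

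The 6 samples of each cell type joined 3 of F1-P and 3 of F1-L, so each SD includes the difference between these groups. For Socs2 in LSK these groups did not overlap. The log2 differences were taken of values plus 1, which makes them smaller where levels are low. On this scale (CPM with both tables scaled together), Socs2 was 44.0 ± 33.2 (SD, n = 6) in LSK and 3.85 ± 1.83 (SD, n = 6) in CMPs, a log2 difference of −3.02. Socs1 was 16.7 ± 2.52 in LSK and 1.67 ± 0.767 in CMPs, a log2 difference of −2.77. Socs3 went from 68.5 ± 28.7 to 13.4 ± 7.30, Cish from 24.8 ± 7.33 to 5.66 ± 3.09, and Pim1 from 512 ± 103 to 135 ± 57.8, with log2 differences of −2.36, −2.03 and −2.03. Stat3 was 196 ± 33.0 in LSK and 90.8 ± 26.3 in CMPs, a difference of −1.14. Stat5a, by contrast, was 84.6 ± 15.1 in LSK and 180 ± 41.1 in CMPs and Stat5b 145 ± 12.1 and 225 ± 21.1, log2 differences of 1.06 and 0.63. LSK of NZBW/F1 carried plasma cell and T and NK cell sums of 9742 to 37905 and 199 to 435, and CMPs of 65.3 to 309 and 11.1 to 47.4, so these markers were also lower in CMPs, and their part was not tested.

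Per kilobase of exon, Pim1 stood far above the others in F1-P LSK, at 159 ± 37.0 (SD, n = 3), followed by Jak2 (27.3), Stat5b (24.6), Socs3 (18.6) and Stat3 (17.97), each of which overlapped its neighbour in this order. Stat5a (10.5), Osm (8.45), Socs2 (6.87) and Socs1 (5.97) came next, again each overlapping the next. Cish had the lowest mean (4.12), and its samples (3.39 to 4.76) lay within the range of Socs2 (3.33 to 10.9). In F1-L LSK Socs2 was last (2.37 ± 0.814), and Cish (3.60) overlapped with it. In F1-L CMPs the order began with Stat5b (43.2), Jak2 (36.4), Pim1 (29.8) and Stat5a (29.1), whose neighbours overlapped. Stat3 (9.61) and Osm (8.37) followed, then Socs3 (3.18), and Cish (0.695), Socs1 (0.4996) and Socs2 (0.277) were last and overlapped.

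**Figure D5:**
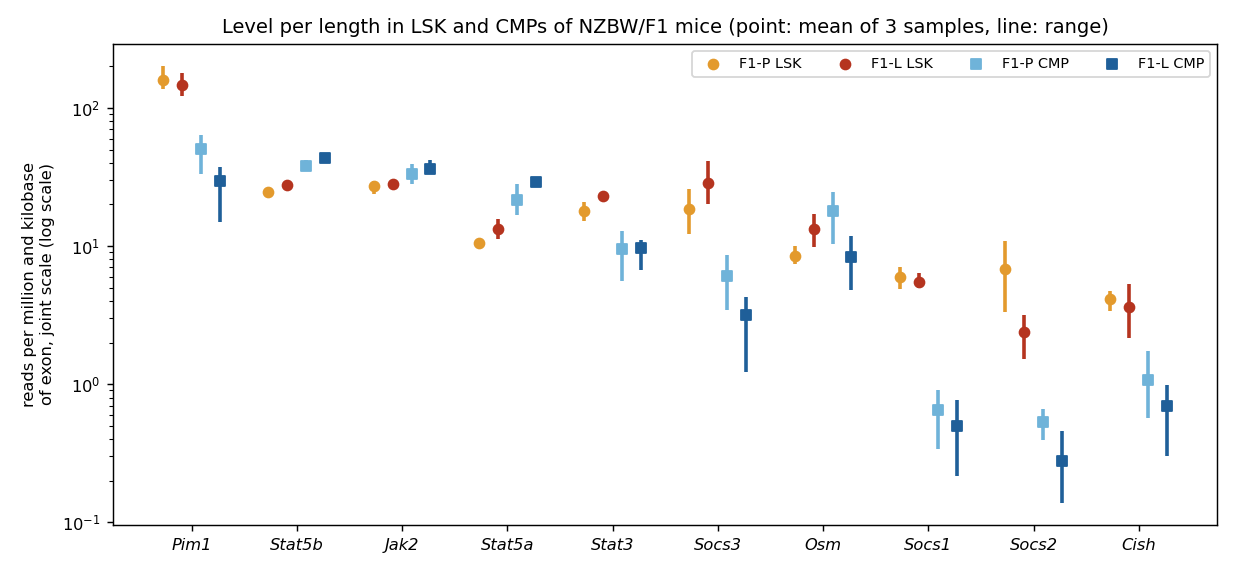
Level per kilobase of exon (log axis, joint scale) of the 10 genes in LSK (circles) and CMPs (squares) of NZBW/F1 mice, with the mean of 3 samples and a line from the lowest to the highest. Cish, Socs1, Socs2, Socs3, Pim1 and Stat3 are lower and Stat5a and Stat5b higher in CMPs, and Pim1 is 159 in LSK and 50.6 in CMPs of F1-P, and 146 and 29.8 in those of F1-L.

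A wider list of 71 genes of the pathway was read in the same fits. In F1-L against B6-O 62 of them were tested and 3 rose, while 0 fell. In F1-P against B6-Y 62 were tested, 7 rose and 6 fell. The shares called were 11.6% and 16.2% of all genes, as given above. The median log2 fold change of the list was 0.24 and 0.05, and that of all genes −0.03 and −0.04. Il2rb, the beta chain of the receptors of interleukins 2 and 15, rose in both comparisons, from 21.6 ± 10.1 CPM (SD, n = 3) in B6-O to 203 ± 114 in F1-L and from 33.9 ± 17.6 in B6-Y to 204 ± 29.6 in F1-P, log2 fold changes of 3.13 (adjusted p = 0.00621 in limma) and 2.66 (adjusted p = 0.00123). Tyk2, the kinase of the interferon and interleukin 12 receptors, also rose in both, with log2 fold changes of 0.60 (adjusted p = 0.0315) and 0.86 (adjusted p = 0.0406). Il2rb is also a gene of T and NK cells, whose marker sum was higher in NZBW/F1 LSK as given above, and their part was not tested.

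Of the 23 receptor genes, Csf2rb, the shared beta chain for interleukin 3, interleukin 5 and GM-CSF, was the other one that rose in F1-L against B6-O (53.1 ± 3.71 to 114 ± 25.4 CPM, log2 fold change 1.06, adjusted p = 0.0102 in limma). In F1-P against B6-Y 2 of 21 tested receptors rose and 4 fell. Il6st, the gp130 chain through which oncostatin M and interleukin 6 signal, rose from 98.8 ± 16.1 to 172 ± 21.1 CPM (log2 fold change 0.80, adjusted p = 0.0128). Csf3r, the G-CSF receptor, fell from 191 ± 41.7 to 88.9 ± 22.1 CPM (−1.10, adjusted p = 0.0112), and Csf2rb2 fell from 34.8 ± 4.12 to 13.9 ± 4.395 (−1.29, adjusted p = 0.00674). The neutrophil sum was 485 to 5441 in B6-Y and 301 to 1281 in F1-P, which overlapped.

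Of the 12 further target genes 2 rose and 2 fell in F1-P against B6-Y and 0 were called in F1-L against B6-O. Bcl2l1, the survival gene of Bcl-xL, had a log2 fold change of 0.74 and Il2ra, the alpha chain of the interleukin 2 receptor, of 2.12, and Ccnd1 (cyclin D1) and the repressor Bcl6 had −0.94 and −0.84, at adjusted p in limma of 0.0218, 0.0452, 0.0154 and 0.0468. The cytokines Ifng and Csf2 rose too but stayed at 3.42 ± 0.443 and 2.14 ± 1.05 CPM in F1-P. Of the 16 other inhibitors, among them Socs4 to Socs7, the Pias genes and phosphatases, 0 were called in either comparison by limma. At an unadjusted p below 0.05 they were 2 of 16 in F1-L against B6-O, beside 27.5% of all genes, and 3 of 16 in F1-P against B6-Y, beside 31.3%.

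Of the 71 genes 0 were called by limma in F1-L against F1-P, in LSK or in CMPs, in B6-O against B6-Y, or in either contrast of 2 changes. At an unadjusted p below 0.05 they were 18 of 63 in LSK of F1-L against F1-P (13 higher, 5 lower) beside 12.8% of all genes, 12 of 60 in B6-O against B6-Y beside 6.62%, 11 of 58 in CMPs beside 9.8%, 11 of 63 in the contrast by strain beside 3.92%, and 10 of 62 in that by cell type beside 7.88%. The other tools were summarised for the 10 genes. The smallest p in LSK of F1-L against F1-P was that of Ccnd1, with 13.1 ± 2.02 CPM in F1-P and 26.3 ± 3.21 in F1-L (log2 fold change 0.95, adjusted p = 0.172 in limma). In CMPs it was that of Il10, with 2.95 ± 1.22 CPM in F1-P and 0.0496 ± 0.0517 in F1-L (adjusted p = 0.283), followed among targets by the AP-1 gene Junb, with 338 ± 102 and 128 ± 34.1 (log2 fold change −1.38, adjusted p = 0.353).

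Genes whose pattern over the 12 LSK samples was closest to that of a member were found among 11331 genes by the root mean square difference of log2(CPM + 1) about each gene's mean. Postn, Nsg2 and Cmah were closest to Socs2 (0.42, 0.53 and 0.54, where the pattern of Socs2 itself had a root mean square of 1.08). Mfhas1, Gimap8 and Ugcg were closest to Socs1 (0.17, 0.20 and 0.21 of 0.58), Adam9, Copg1 and Unc50 to Pim1 (0.11, 0.12 and 0.13 of 0.32), and Metrnl, Fes and Gadd45a to Osm (0.17, 0.19 and 0.21 of 0.41). Cx3cl1 was the closest to Cish, Klf10 to Socs3, Sbno2 to Stat3, Rsu1 to Stat5a, Spidr to Stat5b and Psme4 to Jak2. No other gene of the 10 was among the closest 3 of any of them. The points share their libraries and their scaling, and the likeness is a description.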

How the data were processed

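Gene expression was measured by RNA sequencing of sorted LSK (12 samples) and CMPs (6 samples). Samples were grouped by their labels, with ages from the methods of the study. The authors prepared libraries with a kit that does not mark strand, mapped single-end reads to mm10 (GRCm38) by STAR 2.6, used HTSeq for gene counts and edgeR for normalisation. The deposited values are a signal, CPM of a scaled library size, and a sample's values add up to between 832403 and 1387186 (LSK) or between 967456 and 1033223 (CMPs). All values (100.0%) came out as whole reads within 0.05 reads, and these recovered reads served the count models. No column of either table was left unused, and human samples were not analysed here.

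Genes with a CPM of 1 or more in 3 or more samples of a fit were tested with limma 3.58.1 (lmFit, eBayes with trend, R 4.3.3) on log2(CPM + 1) with Benjamini-Hochberg adjustment over all genes tested. The fits held only the groups compared, and the contrasts of 2 changes held 4 groups. The alternatives were pseudocounts of 0.1 and 0.5, no filter, a mean CPM of 5 or more, median-of-ratios scaling, TMM without immunoglobulin genes, the replicate number as a block, no fold minimum, edgeR 4.0.16 (quasi-likelihood and likelihood ratio tests), DESeq2 1.42.0, all LSK samples in one fit, and each replicate left out. The code was tested on simulated data. Positions are from GENCODE M21 (GRCm38), which gave a symbol to 19770 LSK genes and 18421 CMP genes.

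The 10 genes, the wider lists and the markers were chosen with earlier results of these data known. Of each list of the wider pathway the called genes were named, 4 at most by smallest p, or else the gene with the smallest unadjusted p below 0.05. Samples of a group differed by more than sampling noise, so none were merged. The result of 1 list of the wider pathway is not reported here.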

Additional observations from a re-analysis of the deposited data

How the results depend on the processing

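With 3 samples a group, an adjusted p near 0.05 moved across the threshold when replicates were left out. The number of the 10 genes called was 2 in F1-L against B6-O and 0 to 2 with each replicate left out, and 2 in F1-P against B6-Y and 1 to 2. It was 0 in LSK of F1-L against F1-P, but 1 by the likelihood ratio test and 1 by DESeq2, and 0 in B6-O against B6-Y, but 1 by DESeq2. In CMPs it was 0, 0 to 1 with each replicate left out, and 2 without F1-P CMP 1 and F1-L CMP 2, and in the contrast by cell type 0, but 1 by the likelihood ratio test, 1 by DESeq2 and 0 to 1 with each replicate left out. In the other alternatives these counts did not move by more than 1.5 times. The cause was not tested.

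The replicate numbers did not pair the samples: the correlation of same-numbered samples was −0.043 to 0.026 in LSK of F1-L against F1-P, 0.0029 to 0.061 in F1-L against B6-O, 0.068 to 0.33 in F1-P against B6-Y, −0.36 to 0.47 in B6-O against B6-Y and −0.45 to 0.62 in CMPs, and not every sample correlated best with its own number. With the number as a block the counts of the 10 genes were 2 and 2 against C57BL/6 and 0 elsewhere, as without it, and over all genes 1380, 2787 and 0 in place of 1667, 2331 and 4.

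Signs that reversed belonged to genes that were not called. Stat5b and Socs3 in B6-O against B6-Y were −0.016 and −0.016 under median-of-ratios scaling and −0.010 and −0.017 in DESeq2. Stat3 in CMPs was −0.011, −0.011 and −0.055 in the quasi-likelihood test, the likelihood ratio test and DESeq2 and −0.076 without F1-P CMP 1 and F1-L CMP 2. Without B6-O LSK 3 and F1-L LSK 1, Stat3 was −0.041, and without F1-P LSK 3 and B6-Y LSK 2, Osm was 0.080 and Cish 0.23. With each replicate left out, the log2 values whose sign reversed ranged as follows: in LSK of F1-L against F1-P Cish −0.54 to 0.077, Pim1 −0.23 to 0.10, Jak2 −0.0068 to 0.15, Socs1 −0.20 to 0.049, in F1-L against B6-O Cish −0.13 to 0.49, Stat3 −0.018 to 0.074, in F1-P against B6-Y Cish −0.24 to 0.11, in B6-O against B6-Y Stat5b −0.080 to 0.17, Socs3 −0.12 to 0.19, Osm −0.17 to 0.44, Stat3 −0.17 to 0.058, Jak2 −0.12 to 0.040, Socs1 −0.40 to 0.078, in CMPs Stat3 −0.32 to 0.31, Socs1 −0.53 to 0.0088, in the contrast by strain Pim1 −0.17 to 0.16, Socs1 −0.14 to 0.33, Stat5a −0.021 to 0.21, Cish −0.024 to 0.59, in the contrast by cell type Stat5a −0.071 to 0.31, Cish −0.62 to 0.085, Jak2 −0.088 to 0.15, Stat5b −0.087 to 0.028, Socs1 −0.42 to 0.077. The levels of CMPs over LSK shifted by a median of −0.20 over all genes when scaled to reads outside immunoglobulin genes, so that Osm reversed to −0.073, Jak2 moved to 0.092 and Stat5b to 0.41.

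Over all genes the number called depended on the test: in LSK of F1-L against F1-P 4 in limma, 3, 659 and 734 in the quasi-likelihood, likelihood ratio and DESeq2 tests and 26 with all 12 LSK samples in one fit, in B6-O against B6-Y 0, 0, 115, 207 and 13, in CMPs 1, 1, 318 and 351, in the contrast by strain 0, 0, 10 and 29, and in that by cell type 1, 0, 448 and 430. A mean CPM of 5 or more gave 978 in F1-L against B6-O. With each replicate left out the counts were 448 to 2285 in F1-L against B6-O, 927 to 2229 in F1-P against B6-Y, 0 to 25 in LSK of F1-L against F1-P, 0 to 48 in B6-O against B6-Y, 0 to 434 in CMPs, 0 to 1 in the contrast by strain and 0 to 522 in that by cell type. Depth limits Socs1 in CMPs most, at 12 to 69 reads.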
